A study of Mus musculus with 12 samples.

Results

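The hippocampal difference between stressed and normal F0 males was set against that between sons of stressed males and sons of normal males (F1), gene by gene, as a contrast of contrasts: the F1 change (F1_Dep minus F1_Ctl) minus the F0 change (F0_Dep minus F0_Ctl). All 12 of 12 libraries entered it, and 16163 genes passed the filter on low counts. A positive value means that the F1 change lay above the F0 change, and a negative value that it lay below.

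Each of 4 groups held 3 independent male C57BL/6 mice, 8 weeks old, and the tissue was hippocampus. F0_Ctl were normal males, F0_Dep were males made depressive by stress, F1_Ctl were sons of normal males and F1_Dep were sons of stress-induced depressed males. The F1 mice are described by their father alone: no stress of their own, and no father or litter, is named, so mice of an F1 group may share one, and nothing says that the F0 mice sequenced were their fathers. How stress was applied, and at what time of day tissue was taken, is not stated in the labels. Lane names stand only in the labels of the F1_Ctl libraries, and FPKM values were used for the other 9 libraries alone, so any difference in sequencing between F1_Ctl and the rest cannot be told apart from the group, and it enters every value of the contrast of contrasts.

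The hippocampus holds the granule cells of the dentate gyrus and the pyramidal cells of the CA fields, which encode memory and restrain the hormonal stress response. Neurons that fire strongly switch on immediate early genes within minutes, among them transcription factors such as Egr1 and Fos and effectors such as Arc. Stress hormones act in the same cells through glucocorticoid receptors, which switch on a separate set of genes such as Sgk1 and Fkbp5.

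In all, 3 libraries stood apart in markers of tissue beside the hippocampus. The list level used here is the median, over a list's genes, of log2 CPM (counts scaled to library size, TMM) after each gene's mean over the 12 libraries is taken off. Choroid plexus markers stood at 2.15 in F0_Ctl 3 and 3.31 in F1_Ctl 3, against -2.35 and -2.0 in the other F0_Ctl libraries and -1.54 and -0.08 in the other F1_Ctl libraries; all F1_Dep libraries were high (1.2, 2.26 and 1.99). By contrast, striatum markers stood at 2.39 in F1_Dep 1 against 0.41 and 0.06 in the other F1_Dep libraries. Defining markers of the hippocampus were present in all libraries: Prox1 of the dentate gyrus lay between 38.4 and 240 CPM, and Wfs1 of CA1 between 61.4 and 424 CPM. In whole tissue, fewer cells of a type and less RNA per cell cannot be told apart.

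Of the 16163 genes, 11 were called in the contrast of contrasts at an adjusted p under 0.05, which is 0.0681% of all genes. The F0 change alone had 80 called genes (0.495%) and the F1 change alone 27 (0.167%). Of the 11 genes, 3 had a lower level in F0_Dep and a higher one in F1_Dep by sign (Plk3, Vgf and Krt80), 7 had the reverse (Galnt2, Unc5d, Lyst, Sema5a, Kctd4, Adarb2 and Lrrc17), and mt-Co2 was lower in both. The F1 change of Lrrc17 was -0.0 ± 0.22 (log2, SE), so its sign in F1 shows no fall. In 8 of the 11, Dep and Ctl libraries did not overlap in either generation and lay on opposite sides. That count includes Galnt2, whose F0 change is uncertain (below). For all 11 genes the difference between F1_Dep and F0_Dep was larger in size than that between F1_Ctl and F0_Ctl. These differences, and the signs above, come from the same values that picked the 11 genes, so they are description only. The share of all genes with a larger difference between the Dep groups was not counted. The number of calls rested on single libraries. It was 0 without F0_Dep 1 and 0 without F1_Ctl 2 by edgeR, where 2019 and 1694 genes still had an unadjusted p under 0.05, and 184 without F0_Ctl 3. It was 491 by DESeq2 with all libraries, and all 11 genes were among those 491.

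**Figure D1:**
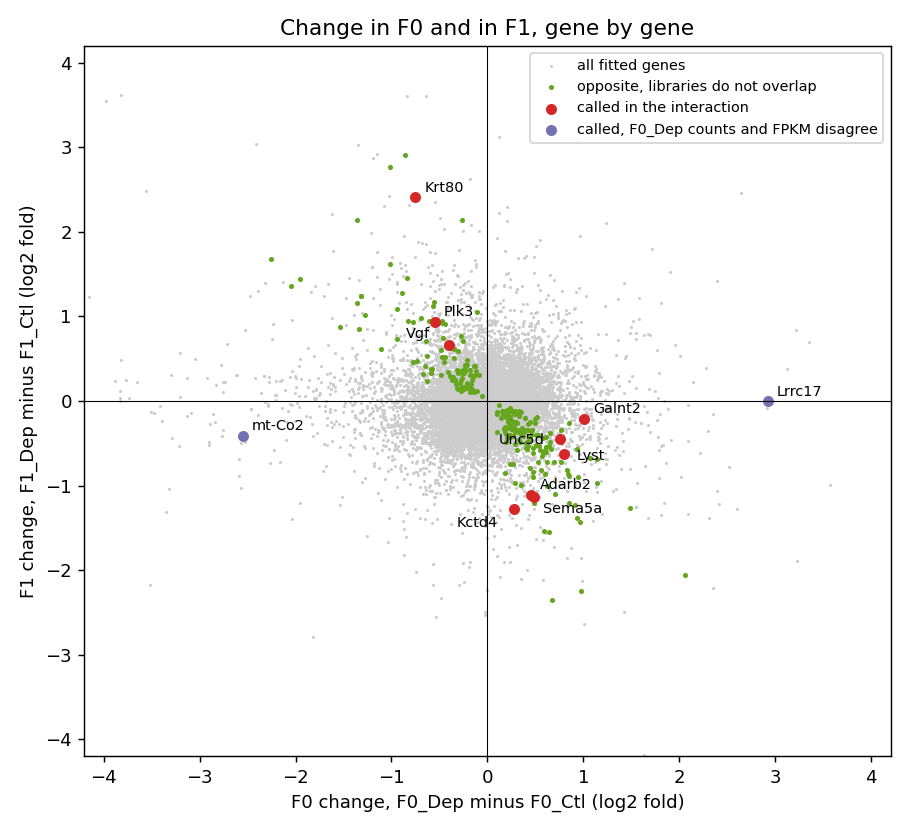
Each point is a gene, with its F0 change on the horizontal and its F1 change on the vertical axis (log2 fold, edgeR, 3 libraries a group). Of the 11 called genes, marked by name, 3 lie at upper left and 7 to the right of zero at or below the horizontal line; green points are the 253 genes that moved in opposite directions without overlap of libraries, and 39 genes lie outside the axes.

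A pair of activity-regulated genes led the group that was lower in F0_Dep and higher in F1_Dep. Plk3 encodes a polo-like kinase induced by cell stress and neuronal activity, and lies on the minus strand of chr4:117128655-117133963 (GRCm38). Its level was 13.1, 14.3 and 12.1 CPM in F0_Ctl, 8.96, 9.59 and 8.4 CPM in F0_Dep, 9.45, 10.1 and 10.6 CPM in F1_Ctl, and 20.8, 20 and 16.7 CPM in F1_Dep. All F0_Dep libraries lay below all F0_Ctl libraries, and all F1_Dep libraries lay above every other library of the study. The F0 change was -0.55 ± 0.12 (log2, SE, n = 3 a group; adjusted p = 0.061), the F1 change 0.94 ± 0.12 (adjusted p = 0.0308), and their difference 1.49 ± 0.18 (adjusted p = 0.0161). FPKM values, a second quantification of 9 of the libraries, placed Plk3 at 2.36 to 2.89 in F0_Dep, 4.46 to 5.06 in F0_Ctl and 5.81 to 7.24 in F1_Dep, the same order without F1_Ctl.

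The promoter of Plk3 is shown because the gene had the most stable call of the 9 whose counts and FPKM did not disagree, and because promoters of immediate early genes often hold the cyclic AMP response element half-site TGACG. It is compared with the promoter of Lyst, a called gene that moved the other way. Each line gives the 250 bases before the start in RefSeq on GRCm38, 5′ to 3′ on the gene's strand, at chr4:117133964-117134213 (minus strand) for Plk3 and chr13:13590159-13590408 (plus strand) for Lyst, with TGACG or its reverse complement CGTCA in capitals.
Plk3: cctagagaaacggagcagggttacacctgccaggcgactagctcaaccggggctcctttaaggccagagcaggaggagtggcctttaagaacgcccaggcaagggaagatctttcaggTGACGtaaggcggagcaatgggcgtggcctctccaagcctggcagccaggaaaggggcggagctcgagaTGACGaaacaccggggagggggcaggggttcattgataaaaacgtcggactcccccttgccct
Lyst: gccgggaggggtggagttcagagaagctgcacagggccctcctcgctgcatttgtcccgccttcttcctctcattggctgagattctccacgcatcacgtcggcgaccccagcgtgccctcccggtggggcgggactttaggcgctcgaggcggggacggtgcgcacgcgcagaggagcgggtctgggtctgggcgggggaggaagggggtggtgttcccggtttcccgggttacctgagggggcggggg
Plk3 held 2 matches and Lyst 0; of the other called genes in the table, Lrrc17 held 1 and Sema5a and Adarb2 held 0. On either strand, 22 of the 31 fitted immediate early genes with a promoter in the table held a match (71.0%), against 27.8% of the 12071 fitted genes with a promoter and 19.8% of all 27025 genes in the table. Among the genes that moved in opposite directions without overlap the shares were 23 of 78 (29.5%) for those lower in F0_Dep and higher in F1_Dep, and 30 of 99 (30.3%) for the reverse. Both shares were close to that of all fitted genes. Promoters of 5 of the 11 called genes were in the table.

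Vgf, a secreted neuropeptide precursor induced by neurotrophins and activity, followed the same pattern at a higher level. It stood at 196, 198 and 163 CPM in F0_Ctl, 142, 148 and 131 CPM in F0_Dep, 149, 143 and 134 CPM in F1_Ctl, and 257, 214 and 204 CPM in F1_Dep. F0_Dep lay below F0_Ctl in all libraries, F1_Dep lay above every other library, and the F1_Ctl libraries stood at the level of F0_Dep, not of F0_Ctl. The F0 change was -0.4 ± 0.11 (log2, SE; adjusted p = 0.0924), the F1 change 0.66 ± 0.11 (adjusted p = 0.0438) and the difference 1.07 ± 0.16 (adjusted p = 0.0367). Between the control groups, F1_Ctl was lower than F0_Ctl by a log2 value of -0.39 for Vgf and -0.39 for Plk3, so part of each difference comes from the controls. In FPKM, Vgf was 84.2 to 97.0 in F0_Ctl and 47.9 to 56.0 in F0_Dep, an F0 change of -0.79 on the log2(FPKM + 1) scale with a limma adjusted p of 0.00811.

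Krt80, which encodes a keratin of epithelial filaments, had the largest difference among the 11 called genes at a low level. It stood at 2.49, 2.57 and 1.68 CPM in F0_Ctl, 1.14, 1.55 and 1.31 CPM in F0_Dep, 1.23, 1.87 and 2.5 CPM in F1_Ctl, and 15, 7.7 and 7.2 CPM in F1_Dep. F1_Dep lay above all other libraries, with F1_Dep 1 the highest, and F0_Dep lay below F0_Ctl in all libraries at a low level. The F1 change was 2.41 ± 0.34 (adjusted p = 0.0337), the F0 change -0.75 ± 0.35 (adjusted p = 0.267), and the difference 3.16 ± 0.49 (log2, SE; adjusted p = 0.0479). FPKM of Krt80 did not separate the F0 groups (0.0834 to 0.492 in F0_Ctl and 0.0595 to 0.318 in F0_Dep).

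Among the genes with a negative difference, Unc5d encodes a netrin receptor (chr8:28646717-29219636, minus strand). It stood at 17.1, 18.3 and 18.4 CPM in F0_Ctl, 27.3, 29.1 and 34.6 CPM in F0_Dep, 24.5, 24.1 and 19.4 CPM in F1_Ctl, and 16.3, 17.0 and 16.4 CPM in F1_Dep. F0_Dep was higher than all other libraries, and F1_Dep was the lowest group. The F0 change was 0.76 ± 0.12 (adjusted p = 0.0306), the F1 change -0.45 ± 0.12 (adjusted p = 0.121) and the difference -1.21 ± 0.17 (log2, SE; adjusted p = 0.0316).

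Sema5a encodes a semaphorin, a guidance protein that also acts at granule cell synapses (chr15:32244810-32696341, plus strand). It stood at 188, 184 and 166 CPM in F0_Ctl, 247, 224 and 286 CPM in F0_Dep, 266, 196 and 180 CPM in F1_Ctl, and 88.1, 117 and 88.5 CPM in F1_Dep. F1_Dep lay far below all other libraries, and F0_Dep lay above F0_Ctl in all. The difference was -1.62 ± 0.23 (log2, SE; adjusted p = 0.0316), most of it from the F1 change of -1.13 ± 0.16 (adjusted p = 0.0337), while the F0 change of 0.49 ± 0.16 did not pass (adjusted p = 0.131).

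Lyst encodes a regulator of lysosome trafficking. It stood at 101, 114 and 86.3 CPM in F0_Ctl, 157, 180 and 187 CPM in F0_Dep, 133, 145 and 105 CPM in F1_Ctl, and 73.2, 89.3 and 84.5 CPM in F1_Dep. The F0_Dep libraries were the highest of the study, and F1_Dep lay below F1_Ctl in all. The F0 change was 0.8 ± 0.14 (adjusted p = 0.0433), the F1 change -0.63 ± 0.14 (adjusted p = 0.0877) and the difference -1.43 ± 0.2 (log2, SE; adjusted p = 0.0316). Its FPKM rose likewise in F0, from 3.47 to 6.11 in F0_Ctl to 9.83 to 12.8 in F0_Dep (limma adjusted p = 0.00792).

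Adarb2 encodes a brain relative of the RNA-editing deaminases and marks some interneurons. Its levels were 34.2, 34.2 and 30.5 CPM in F0_Ctl, 45.9, 46.7 and 42.4 CPM in F0_Dep, 43.3, 47.3 and 32.2 CPM in F1_Ctl, and 14, 21.8 and 21 CPM in F1_Dep. F1_Dep lay below every other library, and the groups did not overlap within either generation. The difference was -1.56 ± 0.24 (log2, SE; adjusted p = 0.047).

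Kctd4, of the potassium channel tetramerisation domain family, had an F1 change of -1.28 ± 0.16 (log2, SE; adjusted p = 0.0308) and a difference of -1.56 ± 0.23 (adjusted p = 0.0367). Its levels were 86.6, 87.4 and 114 CPM in F0_Ctl, 113, 108 and 130 CPM in F0_Dep, 140, 176 and 143 CPM in F1_Ctl, and 59.1, 77.6 and 52.5 CPM in F1_Dep. The F0 groups overlapped, so Kctd4 did not count as moving in opposite directions, and F1_Ctl was the highest group. F1_Ctl exceeded F0_Ctl by 0.67 on the log2 scale, the largest control difference among the 9 called genes whose counts and FPKM did not disagree.

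Galnt2, an enzyme that starts O-linked glycosylation in the Golgi, was called in counts but not borne out in FPKM. Its counts were 35.4, 28.3 and 30.3 CPM in F0_Ctl, 60.7, 66.3 and 61.8 CPM in F0_Dep, 34.6, 41.9 and 35.6 CPM in F1_Ctl, and 30.7, 32.5 and 33.9 CPM in F1_Dep, with an F0 change of 1.01 ± 0.1 (adjusted p = 0.00189) and a difference of -1.21 ± 0.15 (log2, SE; adjusted p = 0.0161). Counts in F0_Dep lay far above all other libraries. FPKM of the same libraries was 12.6, 14.6 and 13.9 in F0_Ctl and 13.7, 14.9 and 14.7 in F0_Dep, an F0 change of 0.07 (limma adjusted p = 0.574). The offset between counts and FPKM in F0_Dep was 0.85 on the log2 scale, just under the threshold of 1 used below to flag disagreement. Gm20388, annotated on the same strand at chr8:119910841-124345722, overlaps Galnt2, and its counts went the other way in F0. They were 22.5, 32.1 and 25.3 CPM in F0_Ctl and 3.42, 0.0 and 2.18 CPM in F0_Dep. In the sons they were 27.4, 13.1 and 22.7 CPM in F1_Ctl and 21.8, 24.5 and 22.2 CPM in F1_Dep. Gm20388 had no FPKM value, and a shift of counts between these genes was not tested. The opposite movement of Galnt2 is therefore uncertain.

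**Figure D2:**
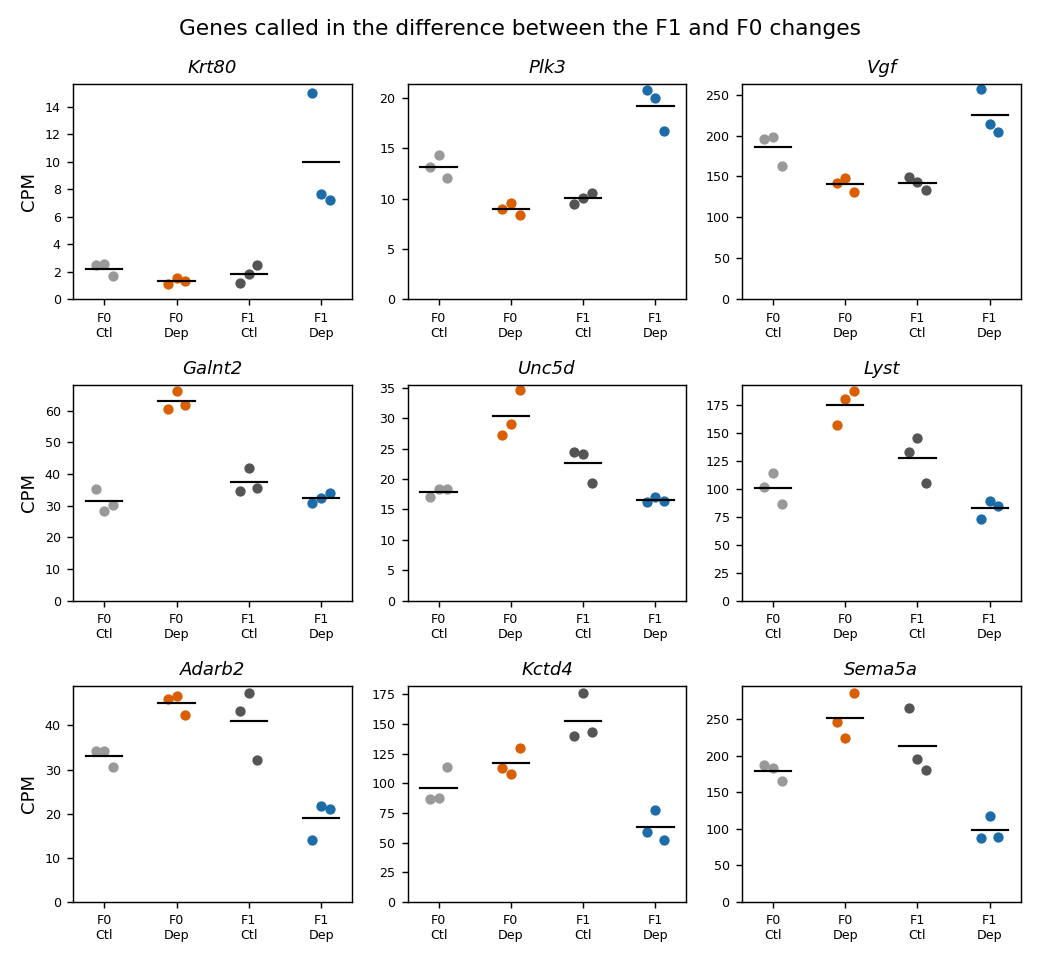
CPM in each of the 12 libraries for the 9 called genes whose counts and FPKM did not pass the rule for disagreement; points are mice, bars are group means. F1_Dep is the highest group for Krt80, Plk3 and Vgf and the lowest for Adarb2, Kctd4 and Sema5a, and F0_Dep is the highest for Galnt2, Unc5d and Lyst.

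In these 9 genes the direction of the difference was the same under every alternative run. Plk3 was called in 21 of 25 alternatives, Lyst and Galnt2 in 18, Vgf in 17, Sema5a, Kctd4 and Unc5d in 15, Krt80 in 13 and Adarb2 in 12. When 1 library was left out, Plk3 kept its call in 8 of 12 fits, with a highest adjusted p of 0.0849 without F0_Dep 3, and lost it without F0_Dep 1, F0_Dep 3, F1_Ctl 2 or F1_Dep 1. Vgf kept it in 4 of 12 fits, with a highest adjusted p of 0.16.

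Opposite movement was also counted without a test, as genes whose 3 Dep libraries all lay on one side of the 3 Ctl libraries in F0 and all on the other side in F1. Taken singly, 13.7% of genes had F0_Dep wholly above and 13.7% wholly below F0_Ctl, and 8.71% had F1_Dep wholly above and 10.3% wholly below F1_Ctl. There were 253 genes with opposite movement (1.57% of 16163): 105 were lower in F0_Dep and higher in F1_Dep (0.65%), and 148 were higher in F0_Dep and lower in F1_Dep (0.916%). The split turned with the scaling: by library totals alone the counts were 186 and 83. More genes moved the same way without overlap, 272 up in both generations and 291 down in both. Of the 253, 240 were protein coding, 8 were called in the contrast of contrasts and 53 had an adjusted p under 0.1. Across all genes, 43.2% had F0 and F1 changes of opposite sign.

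The genes that were higher in F0_Dep and lower in F1_Dep with TMM scaling were long. Span was not measured for the sets found by library totals alone. The median span from start to end of the gene was 49.5 kb for these 148 genes, 19.7 kb for the 105 genes of the reverse direction and 23.2 kb for all genes fitted. Of the 148, 51 (34.5%) spanned 100 kb or more, against 8 of 105 (7.62%) and 14.3% of all genes. They were also more abundant, at a median of 42.7 CPM against 18.2 CPM for the reverse direction and 19.8 CPM for all genes, and the part of abundance in the difference of span was not tested. FPKM gave the same sign of the F0 change for 118 of the 122 of them that could be fitted (96.7%) and for 78 of 83 genes of the reverse direction (94.0%), against 80.0% of all genes with both fits. FPKM comes from the same F0 libraries whose counts picked these genes, so high shares are largely built in. They do not bear on the F1 change.

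Among genes with a mean of at least 1 CPM and an established symbol, ranked by the larger p of their F0 and F1 changes, the leading genes lower in F0_Dep and higher in F1_Dep, beside Plk3 and Vgf, were H2-T23, Gca, Osbpl1a and Myadm. H2-T23, a nonclassical class I antigen-presenting molecule, stood at 8.04, 7.41 and 7.45 CPM in F0_Ctl, 5.0, 4.38 and 3.98 CPM in F0_Dep, 6.29, 6.6 and 8.48 CPM in F1_Ctl, and 17.4, 13 and 10.3 CPM in F1_Dep. The Dep groups lay on opposite sides of both control groups, with a difference of 1.71 ± 0.28 that did not pass (log2, SE; adjusted p = 0.0717). Osbpl1a, an oxysterol-binding protein, was 110 to 155 CPM in F0_Ctl, 94.7 to 99.3 CPM in F0_Dep, 113 to 143 CPM in F1_Ctl and 157 to 213 CPM in F1_Dep (difference 0.92, adjusted p = 0.105). Gca, a calcium-binding protein of the grancalcin type, had a smaller difference of 0.75 (adjusted p = 0.0789), and its FPKM did not change in F0 (0.01, limma adjusted p = 0.936).

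In the reverse direction the leading genes by the same ranking, beside Unc5d and Lyst, were Mycl, Vps13c, Bag4 and Slc7a11. Slc7a11, the cystine-glutamate exchanger that supplies glutathione synthesis, stood at 23.5, 21.5 and 16.3 CPM in F0_Ctl, 30.0, 27.5 and 32.3 CPM in F0_Dep, 25.4, 34.2 and 29.1 CPM in F1_Ctl, and 17.5, 22.3 and 19.4 CPM in F1_Dep. The groups of each generation did not overlap (difference -1.13 ± 0.22, adjusted p = 0.0797). F1_Dep lay in the range of F0_Ctl, while F1_Ctl stood at the level of F0_Dep. F1_Ctl exceeded F0_Ctl by 0.53 on the log2 scale, so part of the difference comes from the controls. Vps13c, a lipid transfer protein, gave -1.21 ± 0.24 (adjusted p = 0.0797). Mycl, a transcription factor of the Myc family, gave -1.07 ± 0.2 (adjusted p = 0.0797), and Bag4, a co-chaperone of Hsp70, gave -0.75 ± 0.14 (log2, SE; adjusted p = 0.0789). None of these 4 passed, and in all 4 the F0 change had the same sign in FPKM with a limma adjusted p from 0.00839 to 0.0329. The share of all genes tested in FPKM that passed in F0 was 21.2%, but these 4 genes were picked by counts of the same F0 libraries.

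Between an adjusted p of 0.05 and 0.1 there were 88 more genes, 64 with a negative and 24 with a positive difference. F0 and F1 changes had opposite signs in 82 of them, against 43.2% of all genes. A small p of the difference favours opposite signs, so this follows in part from how these 88 genes were picked. They included the astrocyte bicarbonate transporter Slc4a4, at 137 to 174 CPM in F0_Ctl, 182 to 211 CPM in F0_Dep, 179 to 185 CPM in F1_Ctl and 124 to 133 CPM in F1_Dep (difference -0.8 ± 0.14, adjusted p = 0.0717). They also included 2 GABA-A receptor subunits with differences of opposite sign. Gabrb1, a beta subunit, was 159 to 180 CPM in F0_Ctl, 205 to 260 CPM in F0_Dep, 171 to 217 CPM in F1_Ctl and 163 to 167 CPM in F1_Dep (-0.75 ± 0.16, adjusted p = 0.0927). Gabra3, an alpha subunit, was 26.7 to 58.8 CPM in F0_Ctl, 23.8 to 32.4 CPM in F0_Dep, 22.7 to 32.9 CPM in F1_Ctl and 45.9 to 68.7 CPM in F1_Dep (1.75 ± 0.37, adjusted p = 0.0961). Gabra3 thus stood highest in F1_Dep, where Gabrb1 stood at the level of F0_Ctl.

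Gene lists are described by counts and medians, beside the same over all genes: 8124 of 16163 were positive, the medians of the F0 change, the F1 change and the difference were -0.03, -0.02 and 0.00, and 13.4% had an unadjusted p under 0.05 (6.01% positive and 7.42% negative). The immediate early genes, a list that holds Plk3 and Vgf, mostly had a positive difference. Of 40 fitted, 33 had a positive difference, 21 were lower in F0_Dep and higher in F1_Dep by sign, 2 were the reverse, 2 were called (Plk3 and Vgf) and 17 had an unadjusted p under 0.05 (42.5%). The medians were -0.23 in F0 and 0.5 in F1 on the log2 scale, with a median difference of 0.53. The list level was 0.35, 0.41 and 0.24 in F1_Dep, above all other libraries, and -0.19, -0.04 and -0.19 in F0_Dep, inside the range of F0_Ctl (0.23, 0.01 and -0.45). Most of the difference therefore lay in the sons, and the F0 median was 0.04 without F0_Ctl 1. The list levels of F1_Dep 3 (0.24) and F0_Ctl 1 (0.23) were almost equal. By summed level, F0_Ctl 1 (3550 CPM) lay above F1_Dep 2 (3470 CPM) and F1_Dep 3 (3270 CPM), while F1_Ctl held 1970 to 2660 CPM.

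Egr1, the activity-induced zinc finger factor, stood at 448, 287 and 110 CPM in F0_Ctl, 200, 195 and 128 CPM in F0_Dep, 164, 225 and 154 CPM in F1_Ctl, and 542, 452 and 424 CPM in F1_Dep. F1_Dep was far above F1_Ctl, while F0_Ctl spread so widely that it held all F0_Dep values (difference 2.08 ± 0.53, adjusted p = 0.138). Arc, the cytoskeletal effector, had 116 to 436 CPM in F0_Ctl, 184 to 264 CPM in F0_Dep, 127 to 299 CPM in F1_Ctl and 408 to 535 CPM in F1_Dep (1.64 ± 0.58, adjusted p = 0.244). Nr4a1, an orphan nuclear receptor, gave 1.94 ± 0.55 (adjusted p = 0.156), Egr2 2.79 ± 0.98 (adjusted p = 0.24) and Fos 1.47 ± 0.62 (log2, SE; adjusted p = 0.329). None of these 5 passed. Bdnf, the neurotrophin that is also induced by activity, had the other sign at -0.38 ± 0.18 (adjusted p = 0.389).

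Glucocorticoid-induced genes had the same sign in both generations. Of 25 fitted, 21 were higher in both Dep groups by sign and 1 moved each opposite way, with medians of 0.36 in F0 and 0.58 in F1 and a median difference of 0.00. Sgk1, a kinase induced by the hormone, was 54.8 to 87.8 CPM in F0_Ctl, 114 to 143 CPM in F0_Dep, 77.4 to 145 CPM in F1_Ctl and 203 to 303 CPM in F1_Dep. Cdkn1a, a cell cycle inhibitor, was called in both generations (0.9, adjusted p = 0.0469, and 1.09, adjusted p = 0.0377), with a difference of 0.19 ± 0.24 (adjusted p = 0.789). Fkbp5, a chaperone that dampens the glucocorticoid receptor, had 46.9 to 53.2 CPM in F0_Ctl, 61.8 to 74.7 CPM in F0_Dep, 46.9 to 59.3 CPM in F1_Ctl and 44.9 to 57.1 CPM in F1_Dep. All F0_Dep libraries lay above all others, and the difference did not pass (-0.46 ± 0.17, adjusted p = 0.273). The receptors Nr3c1 (0.12, adjusted p = 0.884) and Nr3c2 (-0.3, adjusted p = 0.614) had small differences. The list's median difference was 0.39 without the 3 libraries that stood apart.

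**Figure D3:**
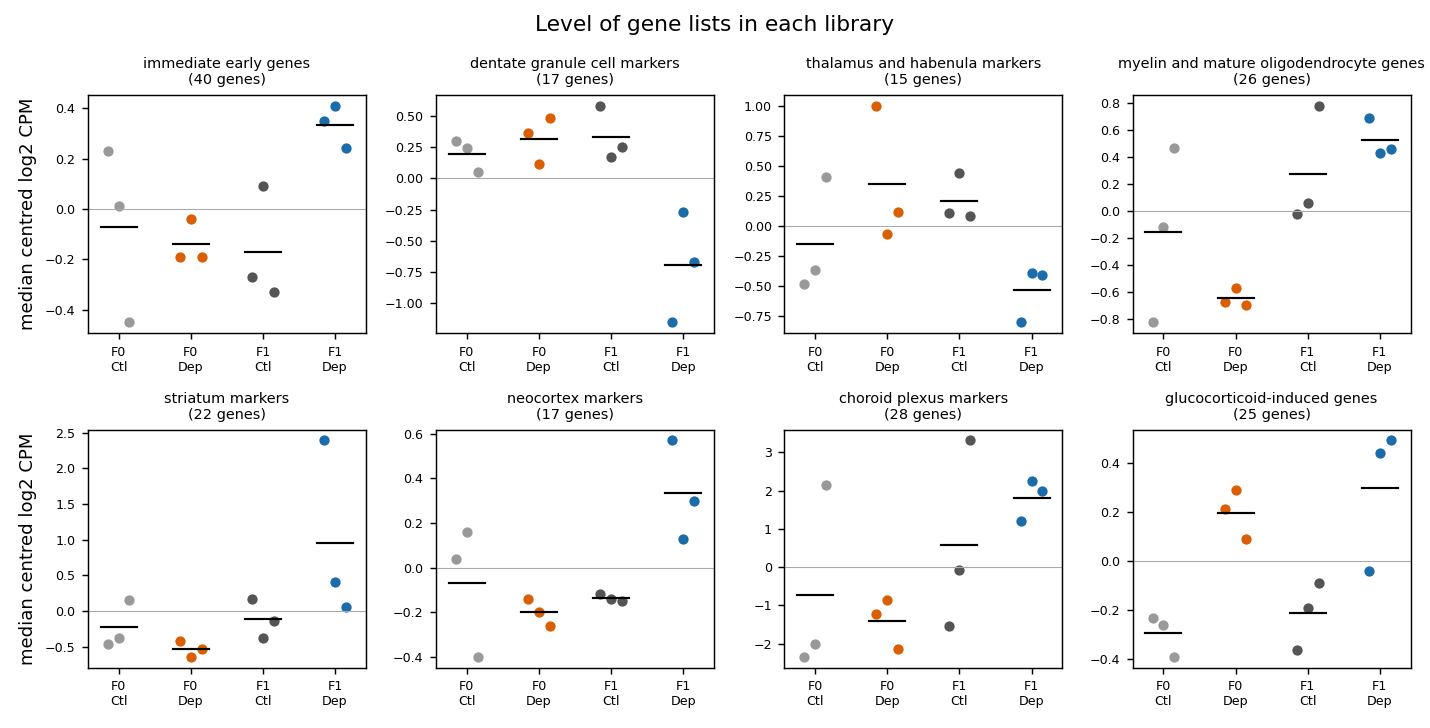
Level of 8 gene lists in each library, as the median over the list of centred log2 CPM; points are mice and bars are group means. F1_Dep stands above all other libraries for immediate early genes and below all others for dentate granule cell markers, while both Dep groups stand above their controls on average for glucocorticoid-induced genes.

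Dentate granule cell markers moved in the other direction, and almost wholly in the sons. All 17 of 17 had a negative difference, 12 were higher in F0_Dep and lower in F1_Dep by sign, 16 had an unadjusted p under 0.05 and 0 were called (edgeR; 13.4% of all genes had an unadjusted p under 0.05). The medians were 0.1 in F0 (0.01 to 0.21 with 1 library left out), -1.03 in F1 and -1.19 for the difference, and the last lay between -1.34 and -1.01 with any 1 library left out. The summed level of the 17 genes was 1590 to 2010 CPM in F0_Ctl, 1700 to 2190 CPM in F0_Dep, 1770 to 2350 CPM in F1_Ctl and 702 to 1310 CPM in F1_Dep, so the F1_Dep libraries lay below all others. C1ql2, a secreted synapse organiser of granule cells, was 72.6 to 116 CPM in F0_Ctl, 77.0 to 100 CPM in F0_Dep, 107 to 118 CPM in F1_Ctl, and 2.21, 42.9 and 25.7 CPM in F1_Dep. The lowest value was in F1_Dep 1, the library with the highest striatum markers (difference -2.23 ± 0.84, adjusted p = 0.273). Tdo2, a tryptophan-degrading enzyme found in granule cells, had a smaller p than C1ql2 (difference -1.94 ± 0.42, adjusted p = 0.0962). Lrrtm4, a postsynaptic organiser of granule cells listed among postsynaptic density genes, fell in the sons (F1 change -1.08 ± 0.15, adjusted p = 0.0308; difference -1.19 ± 0.2, adjusted p = 0.0717). Sema5a, Kctd4 and Adarb2 fell in the same libraries as these markers, and the part of the dentate markers in their difference was not tested.

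Thalamus and habenula markers gave 14 of 15 negative differences and medians of 0.4, -0.69 and -0.92, with 11 higher in F0_Dep and lower in F1_Dep by sign. Their summed level was 198 to 364 CPM in F0_Ctl, 241 to 475 CPM in F0_Dep, 240 to 347 CPM in F1_Ctl and 161 to 205 CPM in F1_Dep. The defining marker Tcf7l2 ranged from 0.463 CPM in F1_Dep 1 to 20.5 CPM in F0_Dep 1 and overlapped between groups in F0. The F0 median rested on F0_Dep 1 (list level 1.0, against -0.07 and 0.12 in the other F0_Dep libraries): without it the F0 median was -0.01 and the median difference -0.58. F0_Ctl 3 moved the F0 median to 0.71 when left out, and the median difference was -1.35 without the 3 libraries that stood apart. Striatum markers went the other way in all 22 fitted, with medians of -0.37, 1.46 and 1.95, of which 1 library held much: the difference was 0.81 without F1_Dep 1. Their summed level was 632 to 666 CPM in F0_Ctl, 609 to 655 CPM in F0_Dep, 568 to 674 CPM in F1_Ctl and 760 to 2680 CPM in F1_Dep. Neocortex markers had 14 of 17 positive differences (medians -0.17, 0.57 and 0.69) and a summed level of 825 to 1060 CPM in F1_Dep, which overlapped that of F0_Ctl (611 to 995 CPM). The neocortex difference was 1.07 without F1_Dep 2, and the F0 median ran from -0.43 without F0_Ctl 3 to -0.06 without F0_Ctl 2. No member of these lists was at 0 in all libraries. These marker levels moved with the groups in the same direction as the immediate early genes (neocortex, striatum) or the reverse (dentate, thalamus), and their part in those results was not tested.

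Myelin and mature oligodendrocyte genes had a positive difference in all 26 fitted, with 21 lower in F0_Dep and higher in F1_Dep by sign and medians of -0.58, 0.21 and 0.78. Gal3st1, which makes the myelin lipid sulfatide, was 9.01, 13.1 and 15.8 CPM in F0_Ctl, 6.63, 6.37 and 4.36 CPM in F0_Dep, 12.3, 11.3 and 16.9 CPM in F1_Ctl, and 18.9, 14.2 and 14.9 CPM in F1_Dep. F0_Dep lay below all other libraries, while the F1 groups overlapped (difference 1.37 ± 0.33, adjusted p = 0.126). The defining marker Mbp was not lower in F0_Dep, at 55.0 to 75.2 CPM in F0_Ctl and 71.7 to 75.8 CPM in F0_Dep. In the sons Mbp was 63.3 to 71.3 CPM in F1_Ctl and 73.8 to 85.7 CPM in F1_Dep. Mog, the other defining marker, overlapped in F0 (36.6 to 96.9 CPM in F0_Ctl, 44.0 to 51.9 CPM in F0_Dep) and in F1 (68.3 to 119 CPM in F1_Ctl, 83.7 to 95.9 CPM in F1_Dep). The median difference was 0.38 and the F0 median -0.21 without F0_Ctl 3, and the summed level in the F0_Ctl libraries alone spread from 3280 to 9840 CPM. No member was called, and 9 of 26 had an unadjusted p under 0.05 (34.6%).

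Choroid plexus markers had the largest list median, 2.39, with 27 of 28 positive and 0 with an unadjusted p under 0.05. It followed single libraries: the median was -0.84 without F0_Ctl 3 and 5.10 without F1_Ctl 3. Ttr, the thyroid hormone carrier that defines this tissue, was 3.0, 5.09 and 4640 CPM in F0_Ctl, 112, 197 and 5.67 CPM in F0_Dep, 94.2, 531 and 8260 CPM in F1_Ctl, and 2600, 4090 and 3740 CPM in F1_Dep. No direction can be read for this list. Ependymal markers turned likewise, from 1.05 to -0.36 without F0_Ctl 3, and interferon-stimulated genes went from 0.48 to 0.07 without the same library.

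Smaller list differences were seen for synaptic and metabolic genes. Postsynaptic density genes had 29 of 39 negative differences and a median of -0.21 (F0 0.24, F1 0.02), and presynaptic release genes had 28 of 41 and a median of -0.15 (F0 0.26, F1 0.08). Both medians moved with single libraries: the postsynaptic one was -0.06 without F0_Ctl 3 and -0.34 without F0_Ctl 1, and the presynaptic one -0.05 without F1_Ctl 2, -0.25 without F1_Dep 1 and -0.36 without the 3 libraries that stood apart. Bsn, the active zone scaffold, was 252 to 445 CPM in F0_Ctl, 716 to 748 CPM in F0_Dep, 284 to 540 CPM in F1_Ctl and 443 to 470 CPM in F1_Dep. It stood highest in F0_Dep and the F1 groups overlapped (difference -0.89 ± 0.31, adjusted p = 0.244). Neuropeptide and neurotrophin genes had 16 of 23 positive differences and a median of 0.38, with Vgf called. The median was 0.23 without F0_Ctl 1, where the F0 median went from -0.4 to -0.19. Tac1 and Penk followed the striatum markers, with Penk at 244 CPM in F1_Dep 1 against 57.2 and 45.6 CPM in the other F1_Dep libraries. Of the cytosolic ribosomal protein genes, 77 of 79 were lower in both Dep groups by sign, with medians of -0.3 and -0.49, the first of which was -0.17 without F0_Ctl 1. Microglia markers (0.04), heat shock chaperones (0.04) and endoplasmic reticulum stress genes (0.06) had small median differences with all libraries. With 1 library left out they ran from -0.15 to 0.23, -0.04 to 0.1 and 0.0 to 0.2, and without the 3 libraries that stood apart they were 0.27, 0.01 and 0.29.

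**Figure D4:**
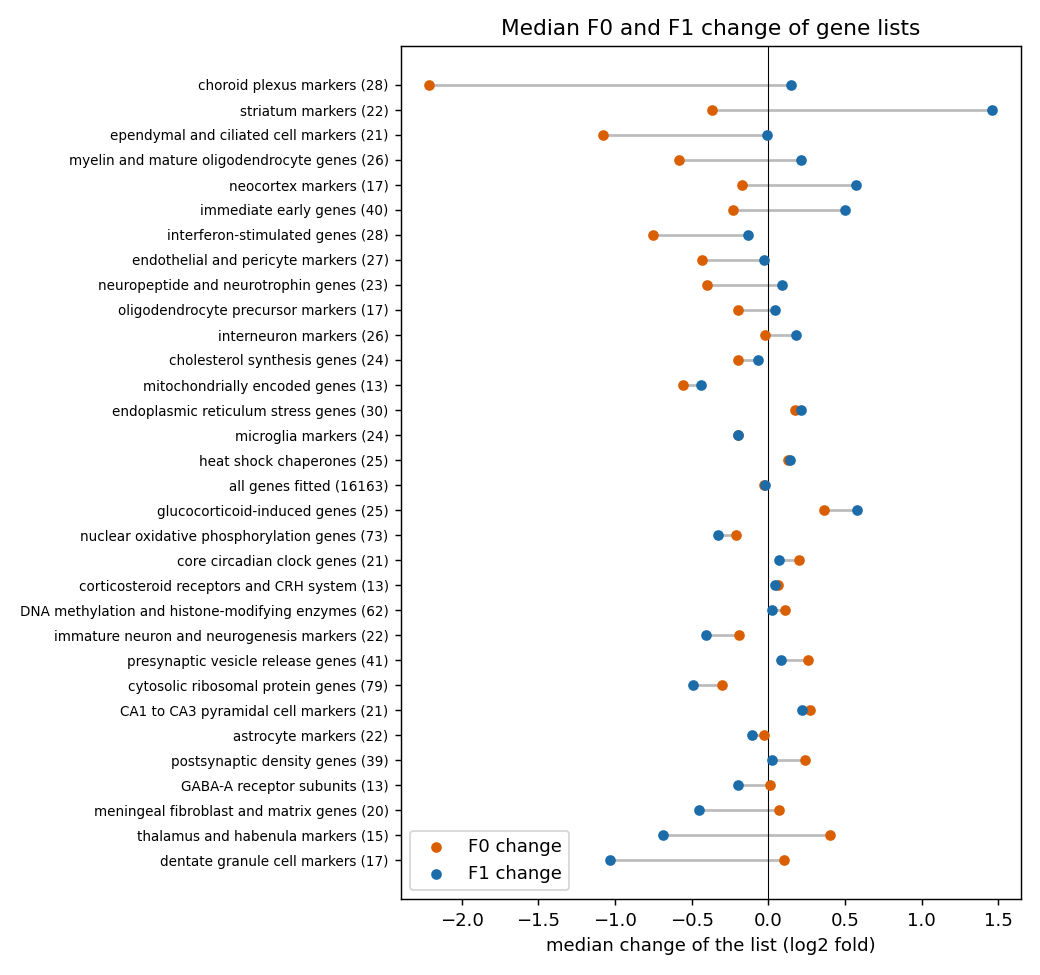
Median F0 change (orange) and F1 change (blue) of each gene list on the log2 scale, ordered by the list's median difference, with the number of genes fitted. Dentate granule cell markers (0.1 and -1.03) lie at the bottom, glucocorticoid-induced genes have both medians above 0 (0.36 and 0.58), and the wide bars of choroid plexus and striatum markers rest on single libraries.

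The F0_Dep counts were then checked against FPKM, since they carry the F0 part of the difference. For each gene and library the offset between log2(CPM + 0.1) and log2(FPKM + 0.1) was centred within the library, and a gene was said to disagree when its 3 F0_Dep offsets all lay on one side of the other 6 and their mean differed by at least 1. Of 15327 genes with both values, 65 disagreed (0.424%), 34 with counts too high in F0_Dep for their FPKM and 31 with counts too low. The same rule marked 20 genes for F0_Ctl and 24 for F1_Dep. The weakest of the 65 differed by 1 and the nearest gene under the threshold by 0.99. Pseudogenes made up 19 of the 65 (29.2%), against 2.47% of the genes compared. In 23 of the 65 (35.4%), at least 50% of 50-base windows of the longest transcript occurred in a transcript of another gene, against 4.16% of all genes compared. Of the 65, 7 were called in F0, 2 in the contrast of contrasts and 4 had an adjusted p of it between 0.05 and 0.1, so these values are uncertain.

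The strongest disagreement was between mitochondrial genes and their nuclear copies on chromosome 1. mt-Co2, a subunit of cytochrome c oxidase, was called in the contrast of contrasts at 2.14 ± 0.32 (log2, SE; adjusted p = 0.0465). Its counts were 9550, 7220 and 7170 CPM in F0_Ctl, 1500, 1700 and 887 CPM in F0_Dep, 7020, 9210 and 11000 CPM in F1_Ctl, and 6700, 7100 and 6660 CPM in F1_Dep. Gm28661, a pseudogene at chr1:24614885-24615565, held 4260, 4120 and 4660 CPM in F0_Dep and rounded to 0 in each of the other 9 libraries. FPKM did not show this: mt-Co2 was 4830 to 4910 in F0_Dep and 5300 to 6390 in F0_Ctl, and Gm28661 was 5340 to 5480 in F0_Dep and 5630 to 6990 in F0_Ctl. With counts of both genes summed, the levels were 5750, 5820 and 5550 CPM in F0_Dep and 7170 to 9550 CPM in F0_Ctl, and the difference became 0.07 (adjusted p = 0.93).

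The first 90 bases of each transcript are shown because the copy cannot be told from the gene by its reads; no base is in capitals, as the 681 aligned bases were identical.
mt-Co2: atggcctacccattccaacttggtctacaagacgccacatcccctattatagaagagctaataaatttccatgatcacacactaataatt
Gm28661: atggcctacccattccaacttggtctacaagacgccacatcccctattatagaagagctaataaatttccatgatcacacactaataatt
Gm29216 and mt-Co1 differ at the start of their shared stretch and are shown for contrast, with the 6 bases that differ among 492 aligned bases in capitals (bases 1054 to 1143 of mt-Co1 and 1 to 90 of Gm29216).
mt-Co1: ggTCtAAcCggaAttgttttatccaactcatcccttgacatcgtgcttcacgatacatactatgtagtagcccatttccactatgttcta
Gm29216: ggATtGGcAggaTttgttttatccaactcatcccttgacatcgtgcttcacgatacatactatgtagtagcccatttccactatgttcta
Gm28437 matched mt-Co3 at 783 of 783 bases and Gm10925 matched mt-Atp6 at 678 of 678. Gm28437 held 1460, 1400 and 2300 CPM in F0_Dep and at most 0.09 CPM elsewhere, and mt-Co3 with Gm28437 summed was 5750, 5600 and 5530 CPM in F0_Dep, 7160 to 9520 CPM in F0_Ctl, 6850 to 12600 CPM in F1_Ctl and 6410 to 6990 CPM in F1_Dep. Summed, mt-Co2 and mt-Co3 were thus lower in F0_Dep than in F0_Ctl in every library, and overlapped between the F1 groups. Of 13 mitochondrially encoded genes, 12 were lower in F0_Dep by sign. The exception, mt-Atp8, moved in opposite directions without overlap. It was 75.5 to 104 CPM in F0_Ctl, 118 to 139 CPM in F0_Dep, 102 to 120 CPM in F1_Ctl and 73.2 to 86.9 CPM in F1_Dep (difference -0.93 ± 0.18, adjusted p = 0.0797). Its FPKM also rose in F0, from 315 to 389 in F0_Ctl to 892 to 959 in F0_Dep (limma adjusted p = 0.00635). The rise was 0.53 in counts and 1.41 in FPKM (log2), with an offset of -0.79, under the threshold of 1. The size of its F0 change is thus uncertain. Among the genes lower by sign, mt-Nd4l hardly changed in counts (-0.01 ± 0.11, log2, SE). Its FPKM rose from 400 to 410 in F0_Ctl to 584 to 813 in F0_Dep (limma adjusted p = 0.00908, offset -0.83). Gm29216, whose counts also disagreed with FPKM (offset -1.3), held from 542 CPM in F0_Dep 3 to 3680 CPM in F1_Ctl 3. Gm10925, though identical to mt-Atp6, held counts in all libraries too: 535, 286 and 416 CPM in F0_Dep, against 5.13 to 122 CPM in F0_Ctl, 3.09 to 32.1 CPM in F1_Ctl and 2.2 to 9.76 CPM in F1_Dep.

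Outside the mitochondrial copies, further genes changed in one measure and not in the other. Lrrc17, a secreted leucine-rich repeat protein named here after its values were seen, had the smallest p of the contrast of contrasts. Its counts were 1.43, 2.04 and 1.63 CPM in F0_Ctl, 13.1, 14.8 and 10.9 CPM in F0_Dep, 2.46, 3.19 and 3.54 CPM in F1_Ctl, and 3.03, 3.7 and 2.43 CPM in F1_Dep (F0 change 2.92 ± 0.23; difference -2.92 ± 0.32, adjusted p = 0.0161). FPKM was 0.0214 to 0.0867 in F0_Ctl and 0 to 0.0491 in F0_Dep, with no rise. Only 1.18% of its 50-base windows occurred in another gene, so shared sequence did not mark Lrrc17 as it did the copies.

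Add3, a membrane skeleton protein, went the other way: its counts were 52.7, 23.9 and 52.4 CPM in F0_Ctl and 4.29, 6.87 and 1.8 CPM in F0_Dep, while FPKM was 30.6 to 34.0 and 37.3 to 39.7. Rps27rt, a retrotransposed copy of the ribosomal gene Rps27 that shares 92.3% of its windows with it, had 6.85 to 9.17 CPM in F0_Ctl and 0.273 to 1.36 CPM in F0_Dep, against FPKM of 7.3 to 9.9 and 5.86 to 6.94. With Rps27 it summed to 41.7 to 71.8 CPM in F0_Ctl and 45.5 to 57.4 CPM in F0_Dep, which overlapped. The other genes among the 12 with the largest disagreement were Rpl36a-ps2, Gm20425, Gm14117, Gm7336, Rpl27-ps3, Gm11518 and Kpna2-ps, of which all but Gm20425 are annotated as pseudogenes. The pseudogenes Rpl27-ps3 and Gm11518 share all of their windows and had equal counts in each library. Other disagreeing genes moved more in FPKM than in counts. The F0 change of Fzd3 was 0.12 in counts and 1.21 in FPKM (log2, limma adjusted p = 0.0141). Dgkh, an opposite mover without overlap, rose in F0 in both, by 0.35 in counts and 1.63 in FPKM (limma adjusted p = 0.00839). Which measure lay nearer the true level was not tested. With the 65 genes left out, 7 genes were called in the contrast of contrasts.

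**Figure D5:**
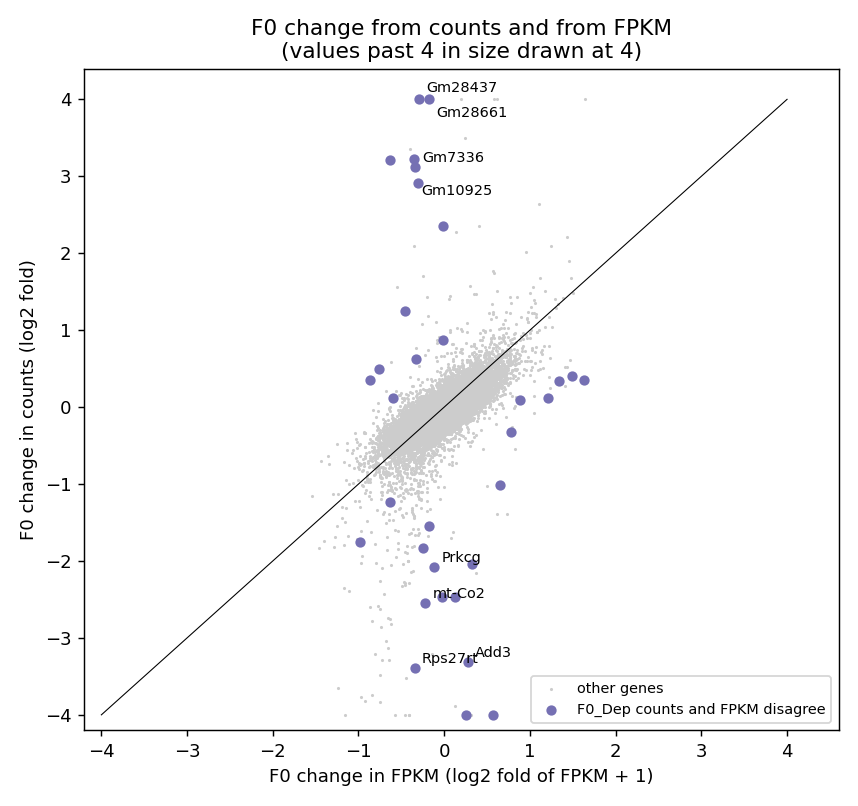
F0 change from counts (vertical, log2 fold) against F0 change from FPKM (horizontal, log2 fold of FPKM + 1), with the diagonal drawn; values past 4 in size are drawn at 4. Purple points are the 33 disagreeing genes that could be fitted in both, of which Gm28661 and Gm28437 lie at the top and mt-Co2, Rps27rt and Add3 near the bottom, all close to 0 in FPKM.

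Of 75 genes called in F0 by counts and fitted in FPKM, 72 had the same sign and 59 were called in both with the same sign. For the 9 called genes that did not disagree, FPKM gave the same sign of the F0 change in all 9 and a limma call in 6; the other 3 were Galnt2, Krt80 and Adarb2. The F1 part of the difference has no such check, since the FPKM values covered only the 9 libraries outside F1_Ctl.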

How the data were processed

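RNA sequencing of 12 libraries was analysed from deposited values: expected counts for 35812 gene IDs and, for 9 libraries, FPKM per gene. The submitters' processing notes name HISAT2, Cufflinks 2.2.1 and mm10 without roles; the counting tool, its use of strand and its annotation are not stated in the labels or notes. Library totals ran from 18277208 to 23083678. IDs without a symbol (610, with 0.579% of the counts) were kept under their ID, and 37 were summed into another ID of the same symbol; the number of unused sample columns was 0.

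Expected counts were rounded and fitted with edgeR 4.0.16 (R 4.3.3): TMM scaling, filterByExpr, 1 quasi-likelihood fit over the 4 groups, F-tests of the contrasts, and Benjamini-Hochberg adjustment over 16163 genes. Standard errors are derived from the F statistic and are approximate. FPKM was tested with limma 3.58.1 (trend) on log2(FPKM + 1), for genes that reached an FPKM of 1 in 3 or more libraries; this scale understates changes of low genes. The fit was tested on simulated counts. Replicates are separate mice, but F1 mice may share a litter, so p-values then measure spread within it. Coordinates are from GENCODE M21 and promoters from RefSeq, both on GRCm38.

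Members and the 31 gene lists were chosen with earlier results of these data known, so no list was tested. Genes were named by a rule: the called genes that have a mean of at least 1 CPM, an established symbol and no disagreement with FPKM; up to 6 opposite movers a direction with the same minimum and kind of symbol, ranked by the larger p of the F0 and F1 changes; up to 3 members a list with the largest difference; up to 12 disagreeing genes; and 20 genes of stress, activity or cell identity. Defining markers, and the partners of copies, are named for their role. Same-numbered libraries of different groups correlated between -0.177 and 0.499 in their deviations from group means, so the numbers were not taken as pairs. Alternatives comprised DESeq2 1.42.0, voom with library weights, other scalings and filters, and each library left out.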

Additional observations from a re-analysis of the deposited data

Results flagged for a closer look

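The F1 and F0 changes differed by the test of the difference itself in 11 genes, each with its difference on the log2 scale. It was positive for Krt80 (3.16), mt-Co2 (2.14), Plk3 (1.49) and Vgf (1.07), and negative for Lrrc17 (-2.92), Sema5a (-1.62), Kctd4 (-1.56), Adarb2 (-1.56), Lyst (-1.43), Galnt2 (-1.21) and Unc5d (-1.21). For mt-Co2 and Lrrc17 the F0_Dep counts disagree with FPKM, and for Galnt2, Krt80 and Adarb2 the F0 change did not pass in FPKM (0.07, -0.09 and 0.33 on the log2 scale, limma adjusted p of 0.574, 0.783 and 0.122). The other 6 passed there with the same sign.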

How the results depend on the processing

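The number of genes called in the contrast of contrasts (11) was 491 by DESeq2, 514 by voom with library weights, 63 with no filter on low counts, 6 by library totals only, 7 with disagreeing genes left out and 487 without the 3 libraries that stood apart; all 11 were among the calls of DESeq2, voom, the unfiltered fit and the fit without the 3 libraries. With 1 library left out it ran from 0 to 184. The cause was not tested. With a replicate block it was 4 (2060 genes with an unadjusted p under 0.05); replicate numbers mark separate mice, and 3 of 12 libraries correlated best with a library of the same number in another group. An alternative added after seeing the data, leaving out IDs without a symbol, gave 10. The 3 libraries that stood apart were also picked by marker levels in these data, so the fit without them is no independent check.

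Counts of opposite movement by library totals only were 186 (F0_Dep lower, F1_Dep higher) and 83 (the reverse). Disagreeing genes numbered 23 with a pseudocount of 1, 276 with a difference of at least 0.5 and 33 with a mean FPKM of at least 1. The median difference of glucocorticoid-induced genes ran from -0.10 to 0.20 with 1 library left out and was 0.39 without the 3 libraries; that of striatum markers ran from 0.81 to 2.31 and was 0.63. The F1 changes of Pltp (0.86) and Kcnj13 (3.54) turned positive and passed without the 3 libraries. That fit left out F1_Ctl 3, high in choroid plexus markers (list level 3.31), and kept F1_Dep 2 and F1_Dep 3, also high (2.26 and 1.99). The F1 median of choroid plexus markers moved from 0.15 to 3.05 in it. The part of choroid plexus content in the changes of Pltp and Kcnj13 was not tested. Depth and 3 mice a group limit what low genes such as Krt80 can show.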
